A study of Mus musculus with 6 samples.

Results

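The insulin-like growth factor 1 (IGF1) axis was described through 10 listed genes: the ligand gene Igf1, the receptor genes Igf1r and Insr, the binding-protein genes Igfbp2 to Igfbp7, and Pappa. They were picked by symbol, out of 55471 Ensembl genes in the deposited table, and all 10 were found there; the imprinted IGF genes were not part of the list. The cells were 10T1/2, a line of mouse embryonic fibroblasts grown in serum-containing medium and left untreated. PolyA RNA was sequenced from 3 libraries labelled Ranbp2 KO, made from cells edited with CRISPR/Cas9 at Ranbp2, which encodes a large nucleoporin on the cytoplasmic face of the nuclear pore, and from 3 wild-type (WT) libraries. The labels give each library as a biological replicate but do not say whether the KO cells were 1 clone or several, nor how the cultures were kept apart. P-values therefore cover no more than the spread among these 6 libraries.

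IGF1 binds the IGF1 receptor, a tyrosine kinase that is closely related to the insulin receptor and that signals through IRS adaptors, PI3K and AKT to mTOR and the FOXO transcription factors. In extracellular fluid most IGF is held by IGF binding proteins, which keep it from the receptor or deliver it to cells, and which are removed by proteases. PAPP-A, the product of Pappa, cleaves IGFBP4 and so frees IGF; stanniocalcins inhibit PAPP-A. Fibroblasts make much of this system themselves, so ligand, receptor, binding proteins and protease can act within a single culture.

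Total expected counts ran from 32072817 to 39378190 in the KO-labelled libraries and from 41354198 to 46321967 in the WT libraries. Ranbp2 mRNA was not lower in the KO-labelled libraries: its CPM, the counts scaled by TMM to a library of 1000000 counts, ran from 289 to 294 there and from 219.6 to 250.0 in WT libraries, a log2 difference of 0.28 (SE 0.07, edgeR adjusted p = 0.0120). A count per gene does not show whether the transcript was edited, so these libraries are named by their label, and a gene that rose or fell did so in KO-labelled relative to WT libraries. The fibroblast label was met by Vim, the intermediate filament gene of mesenchymal cells, at 5337 ± 117 CPM in KO-labelled and 5326 ± 138 CPM in WT libraries, and by Fn1, the gene of fibronectin, at 14511 ± 2736 CPM in KO-labelled and 5860.0 ± 269 CPM in WT libraries (SD, n = 3 each). Thy1, a surface marker of many fibroblasts, was nearly absent from KO-labelled libraries, at 0.533 ± 0.216 CPM against 58.3 ± 2.45 CPM in WT libraries. Of the 11 listed fibroblast markers, 5 were higher and 3 lower at an adjusted p below 0.05, and 3 did not pass. That is 72.7% called, beside 38.9% of all genes tested. Lum, 1 of the higher ones, entered the test through its KO-labelled counts, so this tally is a description. Named after their values were seen, Col1a1 (4230 CPM in KO-labelled, 5716 CPM in WT libraries) and Pdgfrb (238 and 308 CPM) were lower.

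In the KO-labelled libraries the ligand mRNA Igf1 rose 2.55-fold, while Igf1r, Insr, Pappa, Igfbp2, Igfbp3 and Igfbp4 fell. Igfbp7, which had the highest level of the 10 genes, and Igfbp6 did not pass the test, and Igfbp5 was too weakly expressed to be tested. Of the 9 members tested, 1 was higher, 6 were lower and 2 did not pass; over all 15454 genes tested, 38.9% passed at an adjusted p below 0.05, 17.6% as higher and 21.3% as lower. Values of the groups did not overlap for 7 of the 9 members tested, 1 of them above and 6 below the WT values, beside 51.4% of all genes tested. Igfbp2 entered the test through its WT counts alone, so these tallies are a description.

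The RefSeq start-site windows of GRCm38.p6 held 9 sequences for 8 of the 10 genes; those of the ligand gene that rose, of both binding-protein genes with the largest decreases and of the abundant Igfbp7 are shown, each as the 250 bases before the start site, 5′ to 3′. Capitals mark a match on either strand to 1 of 4 motifs. These were the TATA box with the letters TATAAA, and the CCAAT box. The search also covered the GC box with the letters GGGCGG, and a FOXO site written TGTTTAC.
Igf1 (chr10:87860861-87861110, plus strand): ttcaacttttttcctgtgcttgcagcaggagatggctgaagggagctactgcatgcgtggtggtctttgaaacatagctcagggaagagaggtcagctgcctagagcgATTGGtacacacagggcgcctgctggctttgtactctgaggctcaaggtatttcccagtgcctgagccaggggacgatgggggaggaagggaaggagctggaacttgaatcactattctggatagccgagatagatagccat
Igfbp2 (chr1:72824230-72824479, plus strand): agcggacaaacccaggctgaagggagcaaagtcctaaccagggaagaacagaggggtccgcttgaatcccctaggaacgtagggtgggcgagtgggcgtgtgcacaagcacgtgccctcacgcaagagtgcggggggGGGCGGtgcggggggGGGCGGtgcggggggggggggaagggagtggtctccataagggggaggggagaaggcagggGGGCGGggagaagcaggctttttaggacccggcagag
Igfbp4 (chr11:99040994-99041243, plus strand): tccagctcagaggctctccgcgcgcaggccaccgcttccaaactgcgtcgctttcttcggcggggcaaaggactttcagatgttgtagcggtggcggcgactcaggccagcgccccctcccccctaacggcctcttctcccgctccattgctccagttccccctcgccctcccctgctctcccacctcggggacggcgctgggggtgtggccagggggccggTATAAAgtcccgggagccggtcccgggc
Igfbp7 (chr5:77408046-77408295, minus strand): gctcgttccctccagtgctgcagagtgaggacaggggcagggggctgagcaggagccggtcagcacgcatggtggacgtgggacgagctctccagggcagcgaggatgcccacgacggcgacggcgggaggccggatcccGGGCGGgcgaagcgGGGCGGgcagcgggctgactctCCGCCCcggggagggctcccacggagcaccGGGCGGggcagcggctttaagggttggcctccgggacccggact

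The Igf1 window, at the start of a transcript that RefSeq lists downstream of the 5′ end of the gene in GENCODE, had 1 CCAAT box on the minus strand and 5 CG pairs. In the Igfbp2 window shown there were 3 GC boxes and 14 CG pairs; RefSeq's table holds another Igfbp2 window downstream of it, at chr1:72825137-72825386 and not shown, with 11 CG pairs and none of the 4 motifs. The Igfbp4 window had 1 TATA box, which began 28 bases before the start site, and 22 CG pairs. Igfbp7 had 4 GC boxes and 26 CG pairs. Among 32851 windows of the same length, 12.4% held TATAAA, 33.8% CCAAT, 32.7% GGGCGG and 3.17% TGTTTAC, and the median was 6 CG pairs. None of the 9 member windows held TGTTTAC, which says only that these letters are not in those 250 bases.

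Igf1 (ENSMUSG00000020053, chromosome 10, 87858265 to 87937042, plus strand) encodes the ligand. Its level was 22.3, 23.9 and 28.9 CPM in KO-labelled libraries, against 8.98, 9.72 and 10.7 CPM in WT libraries. All 3 KO-labelled values lay more than 2-fold above the WT values and the groups were far apart. Means were 25.1 ± 3.45 CPM in KO-labelled and 9.81 ± 0.869 CPM in WT libraries (SD, n = 3 each), a log2 difference of 1.35 (95% interval 1.10 to 1.60, SE 0.11, edgeR adjusted p = 1.47e-05). Fewer cells of a type and less RNA per cell cannot be told apart in such bulk libraries, here or for any gene below. An exact two-sided permutation test on the CPM of any 1 gene cannot go below p = 0.1 with 3 against 3 libraries, and it gave that value for Igf1 and for each member below whose groups did not overlap. The antisense gene Igf1os lies across Igf1; it had 23 counts over the KO-labelled libraries, where Igf1 had 2693, and 4 over the WT libraries, where Igf1 had 1271.

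Both receptor genes fell, Igf1r by more than Insr. Igf1r (ENSMUSG00000005533, chromosome 7, 67952827 to 68233668, plus strand) encodes the IGF1 receptor. It stood at 164, 181 and 191 CPM in KO-labelled libraries, against 263, 254 and 239.6 CPM in WT libraries. The groups did not overlap, and the means were 179 ± 13.2 CPM in KO-labelled and 252 ± 11.8 CPM in WT libraries, a log2 difference of -0.50 (95% interval -0.67 to -0.33, SE 0.08, edgeR adjusted p = 0.000725).

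Insr (ENSMUSG00000005534, chromosome 8, 3122061 to 3279617, minus strand) encodes the insulin receptor, which also forms hybrids with the IGF1 receptor. It stood at 35.3, 33.8 and 37.9 CPM in KO-labelled libraries, against 41.3, 41.5 and 41.3 CPM in WT libraries. WT values were nearly equal and all KO-labelled values lay below them. The log2 difference was -0.22 (95% interval -0.37 to -0.06, SE 0.07, edgeR adjusted p = 0.0344), the smallest called among the members. This call was lost when KO-labelled library 1 (adjusted p = 0.0693), KO-labelled library 2 (0.135) or WT library 2 (0.0989) was left out and when libraries were scaled by size alone (0.0642), in a range of 0.0273 to 0.135 over all alternatives.

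Per length of exon, Igf1r exceeded Insr in every library. The ratio of their RPKM, which is the TMM-scaled CPM divided by the length of the union of exons in kilobases, was 3.82, 4.39 and 4.12 in KO-labelled libraries and 5.21, 5.02 and 4.75 in WT libraries. The ratio was thus lower in all 3 KO-labelled libraries, with means of 4.11 ± 0.283 in KO-labelled and 4.99 ± 0.232 in WT libraries; it combines chosen members and was given no test.

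**Figure D1:**
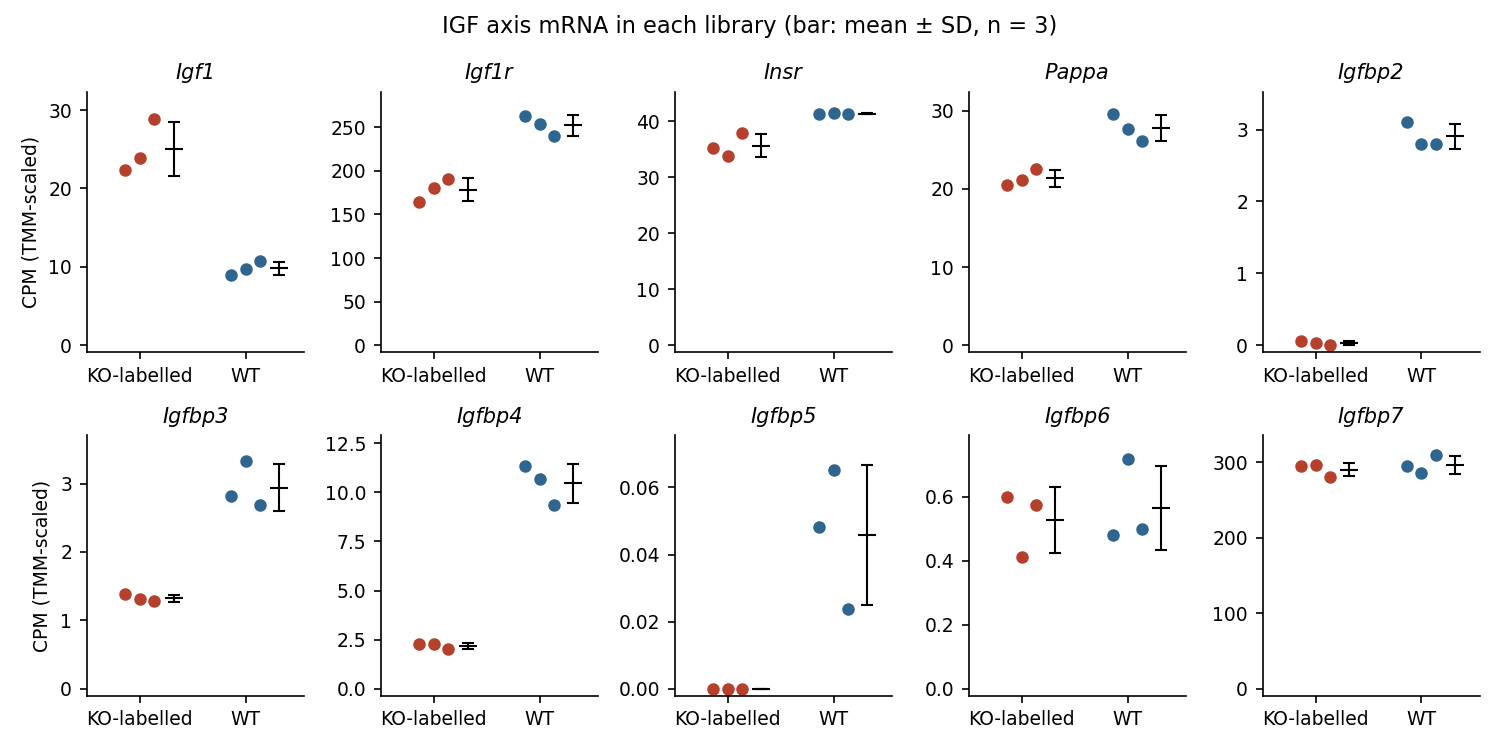
CPM (TMM-scaled, linear axes with a scale of their own in each panel) of the 10 genes in the 3 KO-labelled libraries (red, left) and the 3 WT libraries (blue, right), with mean ± SD beside the points. Igf1 is higher in all KO-labelled libraries; Igf1r, Insr, Pappa, Igfbp2, Igfbp3 and Igfbp4 are lower, Igfbp5 is at 0 in KO-labelled libraries, and the points of Igfbp6 and Igfbp7 overlap between groups.

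Among the binding proteins, Igfbp2 showed the largest difference. Igfbp2 (ENSMUSG00000039323, chromosome 1, 72824503 to 72852474, plus strand) encodes a secreted binding protein with preference for IGF2. It had 2, 1 and 0 counts in KO-labelled libraries and 129, 129 and 118 in WT libraries, or 0.0522, 0.0257 and 0 CPM in KO-labelled libraries against 3.11, 2.81 and 2.80 CPM in WT libraries. The mRNA was thus close to absent from the KO-labelled libraries and low but steady in WT libraries. With 3 counts over the KO-labelled and 376 over the WT libraries, the ratio of WT to KO-labelled CPM was 105, with a 95% counting interval (exact, Clopper-Pearson) of 35.7 to 512. Igfbp2 entered the test through its WT counts alone, so its call is a description. The fitted log2 difference of -6.57 (SE 0.41, edgeR adjusted p = 2.24e-06) depends on how such low counts are smoothed. It was -7.39 without KO-labelled library 1 and ran from -7.39 to -6.12 when each library in turn was left out.

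Igfbp4 (ENSMUSG00000017493, chromosome 11, 99041244 to 99054392, plus strand) encodes the binding protein that PAPP-A cleaves. It stood at 2.27, 2.28 and 2.01 CPM in KO-labelled libraries, against 11.3, 10.7 and 9.36 CPM in WT libraries. The groups were clearly apart, with means of 2.19 ± 0.154 CPM in KO-labelled and 10.5 ± 1.01 CPM in WT libraries. The log2 difference was -2.25 (95% interval -2.55 to -1.96, SE 0.13, edgeR adjusted p = 1.48e-06), which is 4.77-fold lower.

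Igfbp3 (ENSMUSG00000020427, chromosome 11, 7206086 to 7213923, minus strand) encodes the main IGF carrier of serum. It stood at 1.38, 1.31 and 1.28 CPM in KO-labelled libraries, against 2.82, 3.33 and 2.68 CPM in WT libraries. Each KO-labelled value lay below each WT value, and the mRNA was 2.22-fold lower, a log2 difference of -1.15 (95% interval -1.55 to -0.75, SE 0.18, edgeR adjusted p = 0.000780). These values rest on 144 counts over the KO-labelled and 383 over the WT libraries.

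Igfbp7 (ENSMUSG00000036256, chromosome 5, 77349240 to 77408041, minus strand) encodes a secreted relative of the family that binds IGF weakly. It stood at 295, 296 and 279.9 CPM in KO-labelled libraries, against 295, 285 and 309 CPM in WT libraries. The groups overlapped, and the log2 difference was -0.03 with a 95% interval of -0.18 to 0.12 (SE 0.07, edgeR adjusted p = 0.744), so a change of the size seen for Igfbp3 or Igfbp4 lies outside the interval. Polr2b, a subunit gene of RNA polymerase II on the opposite strand, overlaps Igfbp7. It had 13785 counts over the KO-labelled libraries, where Igfbp7 had 31583, and 14797 over the WT libraries, where Igfbp7 had 38383; no source used here gives the strand setting of the counting.

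Igfbp6 (ENSMUSG00000023046, chromosome 15, 102144362 to 102149511, plus strand), a binding protein with a strong preference for IGF2, stood at 0.600, 0.411 and 0.575 CPM in KO-labelled libraries, against 0.482, 0.718 and 0.499 CPM in WT libraries. The values overlapped, and the interval of the log2 difference was wide, from -0.82 to 0.60 around -0.11 (edgeR adjusted p = 0.816), on 57 counts over the KO-labelled and 74 over the WT libraries. Igfbp5 (ENSMUSG00000026185, chromosome 1, 72857932 to 72874884, minus strand), known as a binding protein of bone and muscle, had 0 counts in each KO-labelled library and 2, 3 and 1 counts in the WT libraries. A ratio of WT to KO-labelled CPM as low as 0.987 lies within its 95% counting interval, so a difference was not detectable at this depth.

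**Figure D2:**
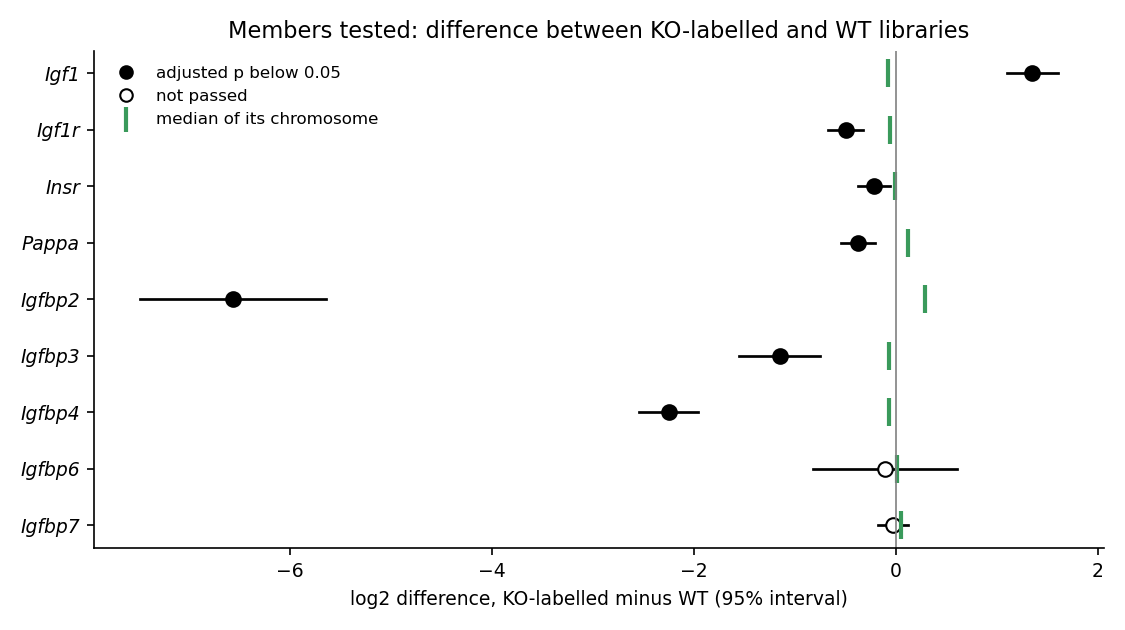
Log2 difference, KO-labelled minus WT, with its 95% interval for the 9 members tested; filled points passed at an adjusted p below 0.05 and the green mark is the median of the other genes tested on the same chromosome. Igf1 lies at 1.35, Igfbp2 at -6.57 and Igfbp4 at -2.25, while the intervals of Igfbp6 and Igfbp7 cross 0.

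Pappa (ENSMUSG00000028370, chromosome 4, 65124174 to 65357509, plus strand), the protease gene, stood at 20.5, 21.1 and 22.6 CPM in KO-labelled libraries, against 29.6, 27.7 and 26.2 CPM in WT libraries. The groups did not overlap, and the log2 difference was -0.38 (95% interval -0.55 to -0.21, SE 0.08, edgeR adjusted p = 0.00334). Its paralog Pappa2, whose product cleaves IGFBP3 and IGFBP5, went the other way, with 7.49, 8.39 and 8.43 CPM in KO-labelled libraries and 3.998, 3.63 and 2.92 CPM in WT libraries, a log2 difference of 1.20 (SE 0.14, edgeR adjusted p = 0.000151). The CPM of Pappa was 2.64 ± 0.114 times that of Pappa2 in KO-labelled libraries and 7.99 ± 0.839 times in WT libraries; this ratio is not corrected for gene length and serves only to compare libraries.

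Further genes that act on the binding proteins were read from a list. In the list of 17 other IGF axis genes, 10 were tested, of which 3 rose, 3 fell and 4 did not pass. That is 60% called, beside 38.9% of all genes tested. The median log2 difference was -0.23, against 0.01 over all genes tested. Adam12, a metalloprotease that cleaves IGFBP3 and IGFBP5, fell to 38.5 ± 4.09 CPM in KO-labelled libraries, against 97.1 ± 10.1 CPM in WT libraries. Htra1, a secreted serine protease that cleaves IGFBP5, fell to 0.538 ± 0.150 CPM in KO-labelled libraries, against 4.04 ± 0.172 CPM in WT libraries, while its relative Htra3 rose to 1.93 ± 0.0794 CPM in KO-labelled libraries, against 0.395 ± 0.0776 CPM in WT libraries. Both stanniocalcin genes, named after their values were seen, were almost absent from KO-labelled libraries. Stc1 had 1 count over the KO-labelled and 46 over the WT libraries, or 38.6 times as much CPM in WT as in KO-labelled libraries (95% counting interval 6.58 to 1556). Like Igfbp2, it entered the test through its WT counts alone, so its place among the genes that fell is a description. Stc2 had 0 counts over the KO-labelled and 26 over the WT libraries, and was not tested; a ratio of WT to KO-labelled CPM as low as 5.50 lies within its 95% counting interval. Igfbp1, the liver form of the binding proteins, had 5 counts over the KO-labelled and 1 over the WT libraries, and Igfals, the gene of the acid-labile subunit of the serum complex, had 14 counts over the KO-labelled and 6 over the WT libraries.

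Levels of the members were compared with each other per length of exon. In KO-labelled libraries the RPKM means were 239.9 for Igfbp7, 10.6 for Igf1r, 2.59 for Insr, 2.53 for Igf1, 1.94 for Pappa, 0.496 for Igfbp4, 0.475 for Igfbp6, 0.423 for Igfbp3 and 0.0141 for Igfbp2, with Igfbp5 at 0. In WT libraries they were 245 for Igfbp7, 15.03 for Igf1r, 3.01 for Insr, 2.52 for Pappa, 2.37 for Igfbp4, 1.57 for Igfbp2, 0.990 for Igf1, 0.940 for Igfbp3, 0.509 for Igfbp6 and 0.00761 for Igfbp5. Igf1 thus stood in place 4 in KO-labelled libraries and in place 7 in WT libraries, and Igfbp2 in place 9 in KO-labelled and place 6 in WT libraries. Neighbours whose ranges overlapped were Insr and Igf1, Igfbp4 and Igfbp6, Igfbp6 and Igfbp3, and Igfbp2 and Igfbp5 in KO-labelled libraries, and Pappa and Igfbp4 as well as Igf1 and Igfbp3 in WT libraries. The first 3 places of both groups were the same with the longest and with the median annotated transcript as the length; some places below moved with that choice.

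**Figure D3:**
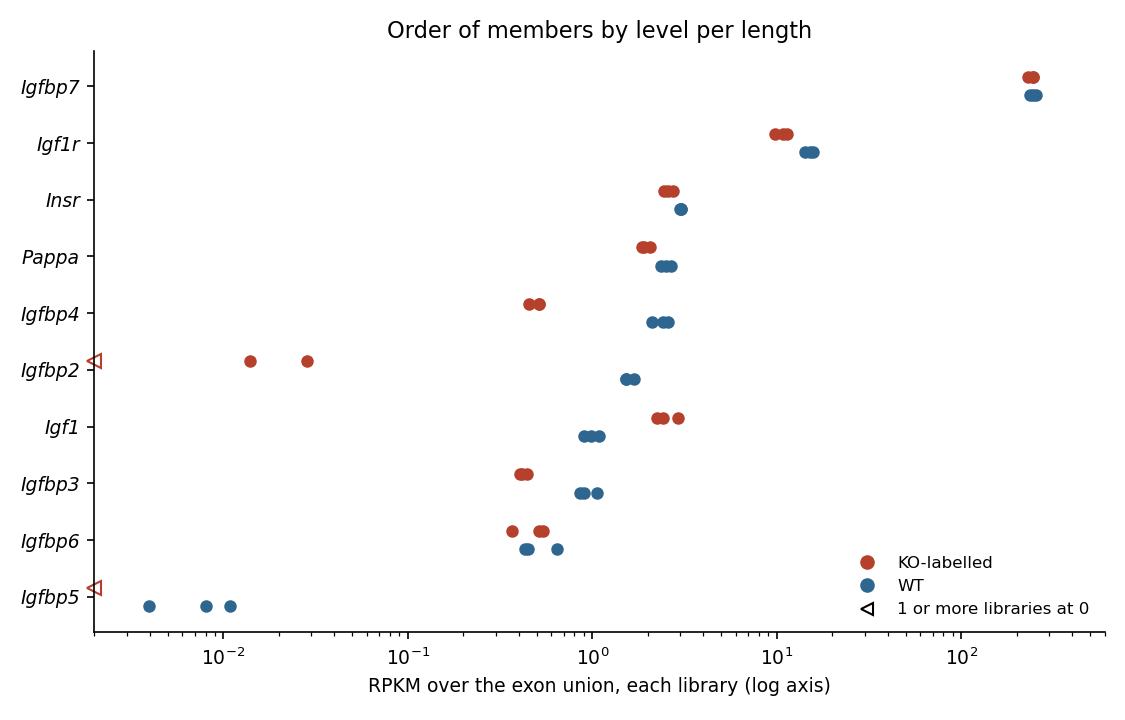
RPKM over the exon union (log axis) of each member in each library, ordered by the WT mean; KO-labelled libraries (red) stand above WT libraries (blue), and an open triangle at the left edge marks 1 or more libraries at 0. Igfbp7 has means of 239.9 RPKM in KO-labelled and 245 RPKM in WT libraries, and Igf1r follows with 10.6 RPKM in KO-labelled and 15.03 RPKM in WT libraries.

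Igfbp7 made up nearly all binding-protein mRNA. Its share of the summed RPKM of Igfbp2 to Igfbp7 was 99.4%, 99.5% and 99.4% in KO-labelled libraries and 97.8%, 97.7% and 98.1% in WT libraries, higher in each KO-labelled library. The sum over all 6 genes overlapped between groups, at 241 ± 7.32 RPKM in KO-labelled and 251 ± 9.36 RPKM in WT libraries. Without Igfbp7 it was 1.52, 1.32 and 1.38 RPKM in KO-labelled libraries and 5.59, 5.66 and 4.95 RPKM in WT libraries, so the remainder was lower in every KO-labelled library. Within that remainder Igfbp6 held 33.6% ± 4.97 in KO-labelled and 9.41% ± 1.86 in WT libraries, and Igfbp4 35.3% ± 3.40 in KO-labelled and 43.8% ± 1.81 in WT libraries. Igfbp3 held 30.1% ± 1.43 in KO-labelled and 17.4% ± 1.35 in WT libraries, and Igfbp2 0.969% ± 0.930 in KO-labelled and 29.2% ± 2.06 in WT libraries. The shares of Igfbp6 and Igfbp3 were higher in KO-labelled libraries although their own levels were not. Igfbp6 averaged 0.475 RPKM in KO-labelled and 0.509 RPKM in WT libraries, and Igfbp3 0.423 RPKM in KO-labelled and 0.940 RPKM in WT libraries. All these shares describe mRNA and say nothing of the amounts of protein.

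**Figure D4:**
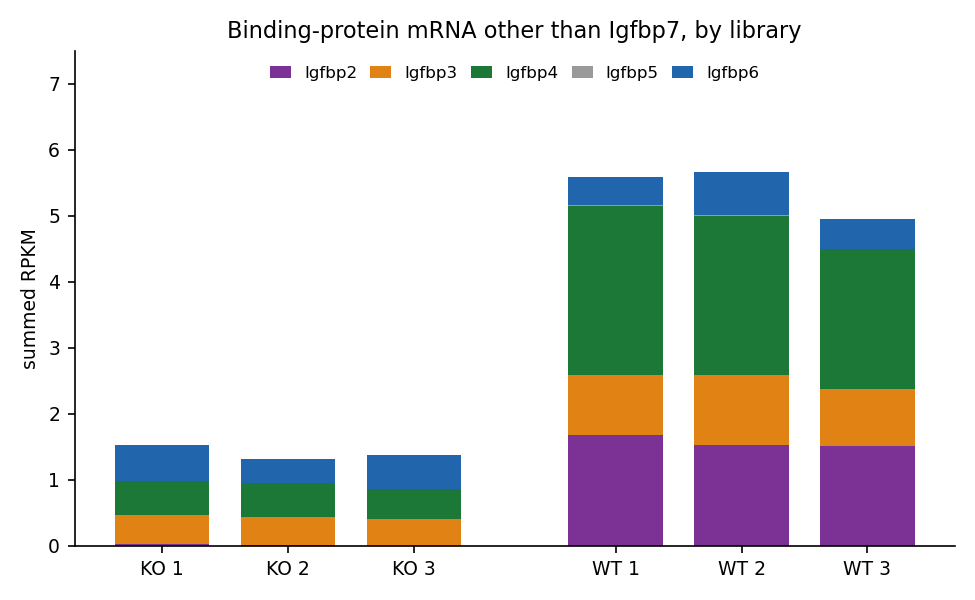
Summed RPKM of Igfbp2 to Igfbp6 in each library, stacked by gene, with the KO-labelled libraries left and the WT libraries right. The KO-labelled sums lie between 1.32 and 1.52 RPKM and the WT sums between 4.95 and 5.66 RPKM, and the Igfbp2 segment is hardly visible in the KO-labelled libraries.

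Genes downstream of the receptors that passed the test went in both directions. Of 38 listed genes of insulin and IGF1 receptor signalling, 37 were tested. Of these 6 rose, 15 fell and 16 did not pass, with a median log2 difference of -0.16. Among all genes tested, 17.6% were higher and 21.3% lower, which also stands beside the counts of the pathway lists that follow. Foxo3, a FOXO transcription factor restrained by AKT, fell to 18.1 ± 2.77 CPM in KO-labelled libraries, against 42.8 ± 2.58 CPM in WT libraries, and Foxo1 to 26.2 ± 0.993 CPM in KO-labelled libraries, against 34.5 ± 0.876 CPM in WT libraries. Irs2, an adaptor of both receptors, fell to 40.6 ± 4.49 CPM in KO-labelled libraries, against 70.4 ± 5.42 CPM in WT libraries. Its sister adaptor Irs1 averaged 312 ± 38.4 CPM in KO-labelled and 269 ± 17.5 CPM in WT libraries, which did not pass (edgeR adjusted p = 0.114; named after its value was seen). Deptor, an inhibitor of mTOR, rose to 15.3 ± 1.63 CPM in KO-labelled libraries, against 9.23 ± 0.650 CPM in WT libraries.

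Of 19 genes known as FOXO targets, 17 were tested, 3 rose, 7 fell and 7 did not pass, with a median of -0.17; Irs2 and Insr stand in this list too. Trib1, a pseudokinase gene, fell by 0.95 (SE 0.08) and Bcl6, a transcriptional repressor gene, by 0.92 (SE 0.12) on the log2 scale, while Sod2, the mitochondrial superoxide dismutase, rose by 0.64 (SE 0.06). The growth hormone pathway, which drives Igf1 transcription in liver, was read through 8 genes, all tested: 2 rose, 5 fell and 1 did not pass, with a median of -0.23. Socs2, a feedback inhibitor of growth hormone signalling, rose to 47.8 ± 1.40 CPM in KO-labelled libraries, against 38.2 ± 1.88 CPM in WT libraries. The related feedback genes Socs3, Cish and Socs1 fell by 0.91 (SE 0.10), 1.31 (SE 0.21) and 0.84 (SE 0.20) on the log2 scale. Ghr, the growth hormone receptor gene, named after its value was seen, rose by 0.29 (SE 0.09).

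Of 13 listed genes of receptor traffic and processing, 12 were tested, 1 rose, 8 fell and 3 did not pass, with a median of -0.60. The list also holds adaptor genes, such as Gab2 and Sh2b2, which were among those that fell. Furin and Pcsk6, proprotein convertases of the kind that cut receptor precursors, fell by 0.67 (SE 0.09) and 1.06 (SE 0.09) on the log2 scale. Mdm2, a ubiquitin ligase of p53 that is also known to act on the IGF1 receptor, fell to 81.4 ± 3.84 CPM in KO-labelled libraries, against 203 ± 30.9 CPM in WT libraries, and Enpp1, a membrane protein that inhibits the insulin receptor, to 5.64 ± 0.539 CPM in KO-labelled libraries, against 12.6 ± 0.520 CPM in WT libraries. The shares called were 56.8% of the signalling list, 58.8% of the FOXO list, 87.5% of the growth hormone list and 75% of this list, beside 38.9% of all genes tested; the lists were chosen and got no test of their own.

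**Figure D5:**
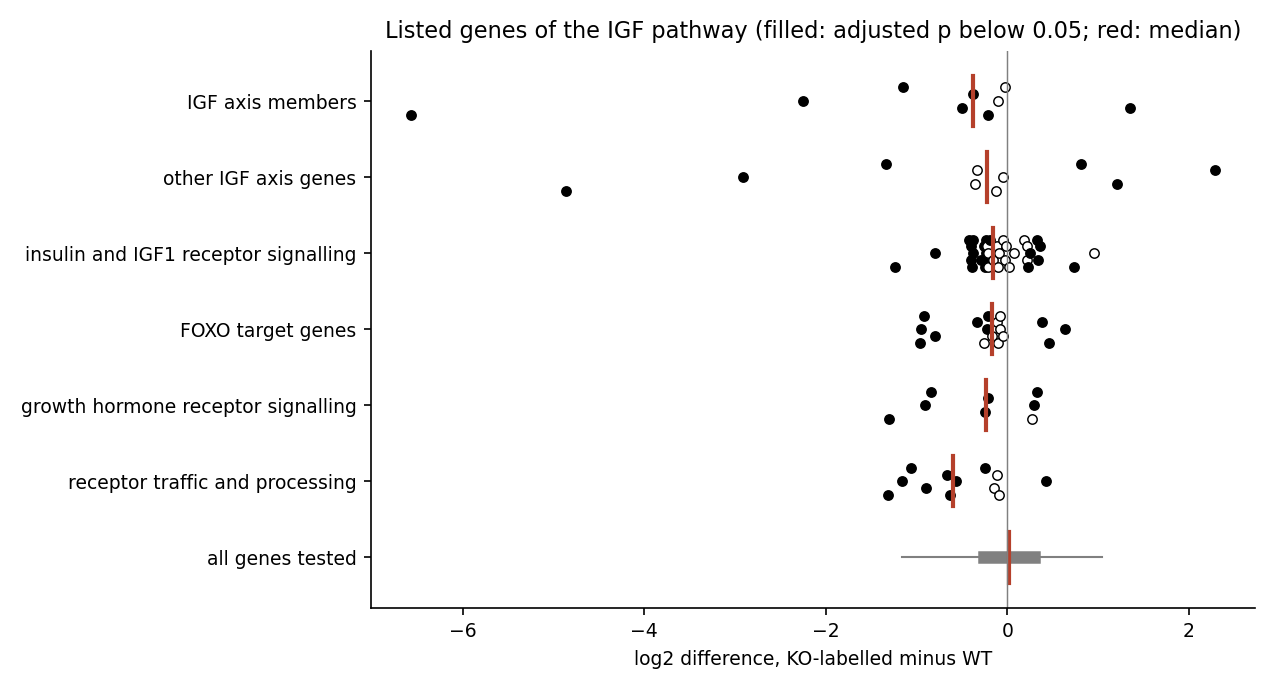
Log2 difference, KO-labelled minus WT, of each tested gene of the members' list and the 5 pathway lists; filled points passed at an adjusted p below 0.05, red bars are medians, and the row of all genes tested gives the 25th to 75th percentile (thick line, -0.26 to 0.29) and the 5th to 95th percentile (thin line, -1.16 to 1.04). Igfbp2 and Stc1 lie furthest below 0 and Htra3 furthest above it.

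Differences were also set beside those of each member's chromosome, since genes of some chromosomes stood above or below the rest. On chromosome 1, which carries Igfbp2 and Igfbp5, the other 966 genes tested had a median log2 difference of 0.29, so Igfbp2 was lower on a chromosome whose genes tended higher. Medians were -0.08 on chromosome 10 with Igf1, -0.06 on chromosome 7 with Igf1r, -0.01 on chromosome 8 with Insr, -0.07 on chromosome 11 with Igfbp3 and Igfbp4, 0.01 on chromosome 15 with Igfbp6, 0.05 on chromosome 5 with Igfbp7 and 0.12 on chromosome 4 with Pappa. After subtraction of these medians all 9 differences kept their direction.

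Marker lists of cell types were read beside these values. The 6 hepatocyte markers summed to 0.0513 to 0.130 CPM in KO-labelled and 0.0482 to 0.131 CPM in WT libraries, with Ttr, Serpina1a and Tat at 0 in all of them and Afp the highest. Of 8 macrophage and leukocyte markers, 3 were tested and 1 was higher; they summed to 2.65 to 3.81 CPM in KO-labelled and 2.13 to 2.90 CPM in WT libraries, with Adgre1 at 0 throughout and Cd68 the highest. The 8 adipocyte markers summed to 68.8 to 75.7 CPM in KO-labelled and 33.7 to 43.0 CPM in WT libraries. Nearly all of it came from both tested members, Pparg and Fabp4, which were higher, and Lep stood at 0. The 8 chondrocyte markers, led by Col2a1, summed to 1144 to 1267 CPM in KO-labelled and 880.0 to 1090 CPM in WT libraries. Col2a1 and Sox9 made up nearly all of it. Acan, with 3 counts over the KO-labelled and 0 over the WT libraries, and Matn1, with 0 and 3, were nearly absent. Sox9, Acan and Matn1 are named here after their values were seen. Of 6 tested members 5 were higher and 1, Sox9, was lower, at 180 CPM in KO-labelled and 221 CPM in WT libraries. Over all genes tested, 17.6% were higher and 21.3% lower. Hapln1 and Col9a1, among the higher markers, entered the test through their KO-labelled counts, so the chondrocyte tally is a description. Epithelial markers summed to 6.16 to 9.16 CPM in KO-labelled and 2.33 to 2.94 CPM in WT libraries, almost all of it Cdh1, with Cldn4 at 0. The endothelial list summed to 20.9 to 24.7 CPM in KO-labelled and 35.3 to 39.5 CPM in WT libraries, nearly all of it Tek. Of its 7 markers 2 were tested, Tek as lower and Pecam1, named after its value was seen, as not passed. Pecam1 averaged 0.793 CPM in KO-labelled and 0.347 CPM in WT libraries, and Cldn5 stood at 0. Of the 7 skeletal muscle markers 2 were tested: Acta1 did not pass (edgeR adjusted p = 0.0805), while Des, named after its value was seen, was higher. Myod1 and Myog stood at 0. For skeletal muscle, led by Acta1, the sums were 8.45 to 12.5 CPM in KO-labelled and 6.70 to 7.07 CPM in WT libraries. For neurons and glia they were 263 to 284 CPM in KO-labelled and 187 to 199.6 CPM in WT libraries, nearly all of it Map2, at 271 ± 10.8 CPM in KO-labelled and 177 ± 8.04 CPM in WT libraries. Tubb3, a neuronal tubulin gene of the same list named after its value was seen, went the other way, at 2.03 ± 0.207 CPM in KO-labelled and 15.4 ± 1.10 CPM in WT libraries. The fibroblast list summed to 26807 to 33728 CPM in KO-labelled and 21327 to 24742 CPM in WT libraries, with Fn1 the highest on average. Fn1 itself stood at 14511 CPM in KO-labelled and 5860 CPM in WT libraries. Of the 11 fibroblast markers 5 were higher, 3 were lower and 3 did not pass, so the sum does not stand for each marker. The fibroblast, adipocyte, chondrocyte, epithelial, muscle and neuron and glia sums thus lay wholly above those of WT libraries, as Igf1 did. The endothelial sums lay wholly below, as the members that fell did. Each of these sums was carried by a few genes of its list, so it does not stand for the other markers. The part of these lists in the differences of the members was not tested.

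The profile of Igf1 across the 6 libraries was most like those of Angpt1, a ligand of the TIE2 receptor, Nrp2, a neuropilin, and Sema3c, a semaphorin. Likeness was the Euclidean distance of centred log2 CPM over 9136 genes with at least 10 CPM on average, and it was 0.226, 0.265 and 0.282 for these genes. Angpt1 stood at 25.9 CPM in KO-labelled and 11.2 CPM in WT libraries on average. With 2 groups of 3 libraries, such a distance mainly finds genes with a like difference between groups.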

How the data were processed

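The authors deposited 1 table of expected counts, with a row for each gene and a column for each library, made with RSEM after cutadapt on GRCm38, per the submitters' processing notes; no source used here gives versions, the aligner or the strand setting. Libraries were made with a KAPA mRNA HyperPrep kit and sequenced on a NextSeq500, per the labels' protocols. Of all values, 17.9% are not whole, since RSEM divides reads between genes, among them values of Insr, Igfbp4, Igfbp7 and Pappa. A near-identical copy or an overlapping gene can therefore have shared their reads.

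Symbols and positions (1-based) came from GENCODE M21 on the same build, which matched 55230 of 55471 identifiers. Expected counts were rounded, filtered with filterByExpr (minimum count 10, minimum total 15), scaled by TMM and tested by two-sided quasi-likelihood in edgeR 4.0.16 under R 4.3.3, with Benjamini-Hochberg adjustment over 15454 genes and a threshold of 0.05. Differences are KO-labelled minus WT. Intervals of log2 differences use the total degrees of freedom of the fit, residual and prior together. Counting intervals cover counting error only. DESeq2 1.42.0 and limma-voom (limma 3.58.1) were alternatives, and the fit was tested on simulated data. No pair of libraries agreed within sampling noise (chi-square per gene at least 13.0).

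Promoter windows came from RefSeq's GRCm38.p6 table. The members and lists were chosen with earlier results of these data known. All members were named; of other lists, up to 4 genes with the smallest adjusted p, and of each cell type list the gene with the highest CPM.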

Additional observations from a re-analysis of the deposited data

How the results depend on the processing

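Igf1, Igf1r, Igfbp2, Igfbp3, Igfbp4 and Pappa kept their direction and their call in all 14 refits. The refits were other scalings, filters and tools, the replicate block and the loss of any 1 library. Igfbp2 entered the main test through its WT counts alone, so its calls are a description. The call of Insr was lost with library size alone (-0.20) and with the replicate block (-0.22, adjusted p = 0.0836); without 1 library its log2 difference ran from -0.27 to -0.18. Same-numbered libraries did not deviate together (r = 0.02, -0.08 and -0.03), so the numbers were not taken as pairs; the block left 4994 of 6011 calls in number and changed no other call among the members. Igfbp6, never called, ran from -0.22 to 0.10 without 1 library, with the sign turned without KO-labelled library 2 or WT library 2, and was not tested at 1 CPM in 3 libraries. Relative to the chromosome's median Igfbp7 stood at -0.083 and Pappa at -0.50.

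With the longest transcript as length, KO-labelled places became 7 for Igfbp3 and 8 for Igfbp6, and WT places 4 for Igfbp4 and 5 for Pappa. With the median transcript length, KO-labelled places became 5 for Igfbp4, 6 for Pappa, 7 for Igfbp3 and 8 for Igfbp6, and WT places 4 for Igfbp4, 5 for Igf1 and 7 for Pappa. The share of Igfbp7 was 99.3% in KO-labelled and 97.4% in WT libraries with the longest transcript, and 98.6% in KO-labelled and 94.6% in WT libraries without length. Depth limits Igfbp2, Igfbp5 and Igfbp6, each under 1 CPM in at least 1 group.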

Other observations

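The tested neighbours of Igfbp2 on chromosome 1 did not fall with it. Of the 9 other genes tested whose lowest annotated coordinate lies within 1 Mb of that of Igfbp2, 6 rose, 0 fell and 3 did not pass, with a median log2 difference of 0.59. Few genes fell on this chromosome as a whole: of its 966 other genes tested, 394 were higher and 85 lower. Over all genes tested, 17.6% were higher and 21.3% lower, which also stands beside the neighbour counts below. Among the neighbours of Igfbp2, named after their values were seen, Xrcc5, a DNA repair gene, stood at 47.3 CPM in KO-labelled and 31.1 CPM in WT libraries on average. Rpl37a, a ribosomal protein gene, stood at 347 CPM in KO-labelled and 278 CPM in WT libraries. Igf1 had 12 tested neighbours in the same window, of which 4 rose, 2 fell and 6 did not pass, with a median of 0.06. Of the 26 tested neighbours of Igfbp4, 2 rose and 7 fell, with a median of -0.07. Their largest differences, named after their values were seen, had opposite signs: Tns4, a tensin gene, fell by 2.75 (SE 0.40) and Ppp1r1b, a gene of a phosphatase inhibitor, rose by 2.73 (SE 0.13) on the log2 scale. Tns4 averaged 0.214 CPM in KO-labelled and 1.49 CPM in WT libraries. It entered the test through its WT counts, so its place among the genes that fell is a description.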
